A study of Mus musculus with 9 samples.

Results

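The Notch pathway genes described here are the receptors Notch1, Notch2 and Notch3, the ligands Jag1, Jag2 and Dll1, the receptor-modifying enzyme Lfng and the target genes Hes1, Hey1 and Nrarp. They were taken by gene name from the deposited count files, and all 10 were found among 32137 genes. RNA was sequenced in 9 libraries of sorted cells from mouse bile duct organoids, cultured balls of duct epithelium, after an expansion phase of 2 to 4 days and a differentiation phase of 11 days. All organoids derived from 1 male mouse of mixed genetic background, which carried Axin2CreERT2+/- and R26-LSL-tdTom+/- alleles. In this line a tamoxifen-dependent Cre recombinase is driven by Axin2, a Wnt target gene, and switches on the red protein tdTomato in cells in which it is active.

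All 3 groups received 3 uM dexamethasone and 500 nM 4-hydroxytamoxifen in the last 24 h. The untreated group held tdTomato-negative cells of organoids to which no R-spondin 1 (Rspo1) was added. Rspo1 is a secreted factor that strengthens Wnt signalling. The Rspo1-negative group held tdTomato-negative cells, and the Rspo1-positive group tdTomato-positive cells, of organoids given Rspo1 at 100 ng/ml. Each group had 3 libraries, from organoid passages 5, 6 and 10. Because the libraries share an animal and an organoid line, p-values measure the spread between cultures and not between animals. Rspo1-negative against untreated compares the treatment within the tdTomato-negative gate, Rspo1-positive against Rspo1-negative compares the gates within treated organoids, and Rspo1-positive against untreated differs in both.

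Notch receptors are bound by Jagged or Delta ligands on a neighbouring cell, then cut by ADAM proteases and by gamma-secretase. The freed intracellular domain joins the DNA-binding protein Rbpj and Mastermind coactivators and switches on genes such as the repressors Hes1 and Hey1. Fringe enzymes such as Lfng add sugars to the receptors and change which ligands they respond to. In the developing liver, Jag1 and Notch2 are required for bile duct formation, and loss of either human gene causes Alagille syndrome.

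Total counts were 23423979 to 37351448 per library. Axin2, the gene that drives the Cre, had 0.307 to 1.37 FPKM in the untreated libraries, 10.8 to 29.0 in the Rspo1-negative and 17.6 to 35.2 in the Rspo1-positive libraries, so the tdTomato-negative gate of treated organoids was not low in Axin2 RNA. Of the markers of duct cells (Krt7, Krt19, Epcam, Cdh1, Spp1, Cftr), 6 of 6 were expressed. Their summed level was 6720 to 6940 CPM (counts divided by the TMM-scaled library size) in the Rspo1-positive and 7880 to 9830 CPM in the other libraries. The markers differed in direction. Krt7 and Krt19 were lower in every Rspo1-positive library than in all others, and Cftr was higher (12.1 to 14.6 against 3.35 to 6.58 CPM). Epcam, Cdh1 and Spp1 overlapped with the other libraries. Of 5 endothelial markers, 4 were in the files and 0 passed the filter on low counts, with Cdh5 at 0 throughout. Of 6 mesenchymal markers, 4 were in the files and summed to at most 0.950 CPM. The secretory or neuroendocrine markers summed to at most 0.206 CPM, with Neurog3 at 0. The immune list reached 45.5 to 68.1 CPM in all groups, with Csf1r at 1034 to 1949 counts, Cd68 at 178 to 865 counts and Ptprc at 0 to 5 counts per library. The hepatocyte list summed to 164 to 440 CPM in untreated, 268 to 545 in Rspo1-negative and 204 to 312 in Rspo1-positive libraries, with Ttr at 5183 to 20079 counts, Alb at 116 to 503 counts, and Cps1 and Cyp3a11 at 3 counts or fewer. The 5 proliferation markers summed to at most 102 CPM in untreated, 161 to 174 in Rspo1-negative and 439 to 648 in Rspo1-positive libraries. The 5 genes listed for the response to dissociation (Fos, Fosb, Egr1, Jun and Atf3) summed to 143 to 407, 165 to 361 and 407 to 1240 CPM. All libraries had the same dissociation, 7 min at 37 C, and the source of this difference was not tested.

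Of the 10 Notch genes, 9 passed the filter on low counts and were tested among 17011 genes, and Hey1 did not pass. The promoters of 8 of the 10 had an entry in the RefSeq table (GRCm38.p6), with none for Hes1 and Hey1. The core of the sequence bound by Rbpj, TGGGAA or TTCCCA on the other strand, was searched in the 250 bases before each RefSeq start. For Notch1, Jag2 and an entry of Dll1 all these bases lay downstream of the gene start in the GENCODE annotation. For Jag1, 126 of the 250 lay upstream of it. Bases further upstream of these starts were not searched. The core was found in Lfng alone, at 135 and 108 bases before the RefSeq start, against 21.6% of 32851 mouse promoters of the same length. The promoter of Lfng is shown because it holds these matches (in capitals), and that of Jag1 because Jag1 is the gene whose level differed most between the groups. Both are given 5′ to 3′ on the strand of the gene, from the bases upstream of the annotated starts, at chr5:140607091-140607319 (plus strand) for Lfng and chr2:137116645-137116770 (minus strand) for Jag1. The Lfng sequence shown ends 21 bases before its RefSeq start.
Lfng: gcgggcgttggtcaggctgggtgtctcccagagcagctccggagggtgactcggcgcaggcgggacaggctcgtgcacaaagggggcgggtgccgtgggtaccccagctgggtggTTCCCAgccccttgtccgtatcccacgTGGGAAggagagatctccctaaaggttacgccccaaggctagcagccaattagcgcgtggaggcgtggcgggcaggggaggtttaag
Jag1: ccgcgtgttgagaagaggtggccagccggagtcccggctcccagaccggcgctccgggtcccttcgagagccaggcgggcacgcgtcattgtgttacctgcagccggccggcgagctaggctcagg

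The levels of different genes are set side by side as deposited FPKM, which is scaled by gene length. Hes1 had the highest level of the 10, at 30.6 ± 3.08 FPKM (SD over 9 libraries), and stood above the next gene, Lfng, in 9 of 9 libraries. Lfng followed with 17.7 ± 4.81 and Jag2 with 15.9 ± 4.28 FPKM, and Lfng was above Jag2 in only 6 of 9 libraries, so the order of these neighbours was not fixed. Jag2 was above Notch2 in 8 of 9. Notch2 (10.6 ± 1.71), Jag1 (9.83 ± 3.24), Notch1 (9.78 ± 1.15) and Dll1 (9.42 ± 0.951) lay within each other's spread, and each was above the next in 7, 4 and 6 of 9 libraries. Dll1 stood above Notch3 in 9 of 9 libraries. Notch3 had 2.52 ± 0.883 and Nrarp 2.16 ± 0.420 FPKM, and Hey1 was lowest at 0.0643 ± 0.0425 FPKM.

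**Figure D1:**
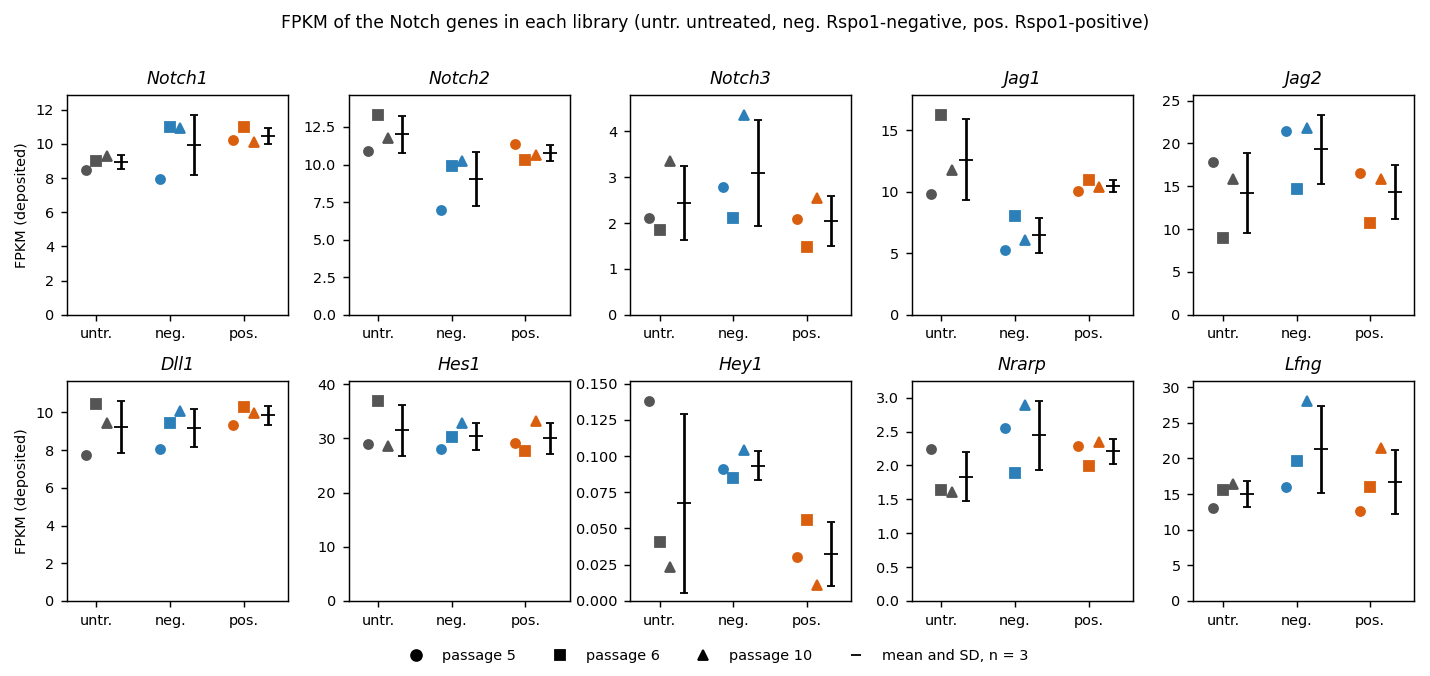
Deposited FPKM of the 10 Notch genes (y axis, each panel with its own scale from 0) in the untreated, Rspo1-negative and Rspo1-positive libraries (x axis). Each point is 1 library, its shape gives the passage, and the bar gives the mean and SD of 3 libraries; the Jag1 points of the Rspo1-negative group lie at 5.27 to 8.05 FPKM, below all other libraries.

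Among the receptors, none of the 3 passed the test between any pair of groups when group was the only factor. Notch1 (ENSMUSG00000026923, GRCm38 chr2:26457903-26516663, minus strand), the receptor best known from T cells and arteries, had 81.6, 86.8 and 90.0 CPM in the untreated libraries of passages 5, 6 and 10. It had 72.8, 104 and 104 CPM in the Rspo1-negative and 98.1, 105 and 98.95 CPM in the Rspo1-positive libraries. All 3 Rspo1-positive values lay above the untreated ones, whereas the Rspo1-negative values spanned both. The log2 difference of Rspo1-positive against untreated was 0.22 ± 0.15 (SE), with an adjusted p of 0.506 by edgeR's quasi-likelihood test. That of Rspo1-negative against untreated was 0.12 (adjusted p = 0.588), 0.37 (0.0796) with a correction for GC content and transcript length, and 0.37 (0.0336) with this correction and passage as a block.

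Notch2 (ENSMUSG00000027878, chr3:98013527-98150361, plus strand), the main receptor of duct formation, had 116, 142 and 126 CPM in untreated, 70.8, 104 and 108 CPM in Rspo1-negative and 120, 108 and 115 CPM in Rspo1-positive libraries. Each Rspo1-negative value lay below each untreated value, and the passage 5 library was the lowest. The log2 difference was -0.44 ± 0.17 (SE; 95% interval -0.81 to -0.07) with an adjusted p of 0.0813 by edgeR, and with passage as a block it was -0.45 with an adjusted p of 0.0346. After a correction for GC content and transcript length it was -0.11 without the block (adjusted p = 0.703) and with it.

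Notch3 (ENSMUSG00000038146, chr17:32120820-32166852, minus strand), best known from vascular smooth muscle, had 17.1, 15.2 and 27.5 CPM in untreated, 21.8, 16.9 and 35.3 CPM in Rspo1-negative and 17.0, 11.9 and 21.2 CPM in Rspo1-positive libraries. Group ranges overlapped, and passage 10 was the highest of each group. Within each passage the Rspo1-positive library was below the Rspo1-negative one, by 0.36, 0.51 and 0.74 on the log2 scale. The log2 difference of Rspo1-positive against Rspo1-negative was -0.56 ± 0.32 (SE) with an adjusted p of 0.223 by edgeR, and with the passage block it was -0.53 with an adjusted p of 0.00962.

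As shares of the summed FPKM of these 3 receptors, Notch2 held 51.3 ± 3.52% (SD, n = 3) in untreated, 40.8 ± 1.95% in Rspo1-negative and 46.3 ± 1.47% in Rspo1-positive libraries. Notch1 held 38.3 ± 1.13%, 45.1 ± 2.51% and 45.0 ± 2.92%, and Notch3 between 6.49 and 17.1% in the 9 libraries. The receptor Notch4, outside the 10 genes, was not part of this sum. Notch4 had 3.61 ± 0.597 FPKM (SD over 9 libraries), against 2.52 ± 0.883 for Notch3. Notch2 was the largest share in every untreated library, while in the Rspo1-negative libraries Notch1 was. The Notch2 share was 10.5 percentage points lower in Rspo1-negative than in untreated libraries, with no overlap, and the Notch1 share 6.88 points higher.

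Among the ligands, Jag1 was lower in the Rspo1-negative cells than in both other groups, and it was the only Notch gene called between groups when group was the only factor. Jag1 (ENSMUSG00000027276, chr2:137081456-137116644, minus strand), the ligand whose loss causes bile duct paucity, had 1811, 2774 and 2326 counts or 55.7, 92.8 and 66.9 CPM in the untreated libraries of passages 5, 6 and 10. The Rspo1-negative libraries had 1076, 1099 and 812 counts, or 28.6, 45.2 and 34.4 CPM. The Rspo1-positive libraries had 2305, 1823 and 2141 counts, or 56.7, 61.5 and 59.9 CPM, within the untreated range. The 3 Rspo1-negative values were the 3 lowest of the 9.

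Jag1 fell 1.99-fold from untreated to Rspo1-negative, from 71.8 ± 19.0 to 36.1 ± 8.42 CPM (SD, n = 3). The log2 difference was -0.99 ± 0.21 (SE; 95% interval -1.45 to -0.54) with an adjusted p of 0.00869 by edgeR. It was -0.96, -1.04 and -0.96 within passages 5, 6 and 10, and it was called in 14 of 14 alternative fits (-1.16 to -0.75). Of the 9 tested Notch genes, 1 was thus called in this comparison, beside 21.9% of all genes tested. Group values did not overlap in 2 (Jag1 and Notch2), beside 36.3% of all genes. With the passage block 4 were called (Jag1, Jag2, Notch2 and Lfng), beside 35.5% of all genes, and with the block and the GC and length correction 3 (Jag1 at -0.75, Jag2 and Notch1), beside 22.2%.

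Between the gates of treated organoids, Jag1 was 1.65-fold higher in the tdTomato-positive cells, at 59.4 ± 2.42 CPM (SD, n = 3). The log2 difference was 0.72 ± 0.21 (SE; 95% interval 0.26 to 1.18) with an adjusted p of 0.0290 by edgeR. Within passages 5, 6 and 10 it was 0.98, 0.44 and 0.80. The call was lost on leaving out the Rspo1-negative library of passage 5 (adjusted p = 0.103) or 10 (0.0924), or the Rspo1-positive library of passage 5 (0.0651), 6 (0.0867) or 10 (0.0714). It was also lost with the GC and length correction (0.43, adjusted p = 0.167), and held with that correction and the passage block together (0.45, adjusted p = 0.0193). The proliferation and dissociation lists given above were also higher in the Rspo1-positive than in the Rspo1-negative libraries. Their part in this difference was not tested. In sorted bulk samples, fewer cells with a gene and less RNA per cell cannot be told apart. Of the 9 tested Notch genes 1 was called here, beside 24.3% of all genes, and 3 with the passage block (Jag1, Jag2 and Notch3), beside 38.9%. With block and GC and length correction 4 were called (these and Dll1), beside 24.3%. Values did not overlap in Jag1 alone, beside 45.2% of all genes.

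**Figure D2:**
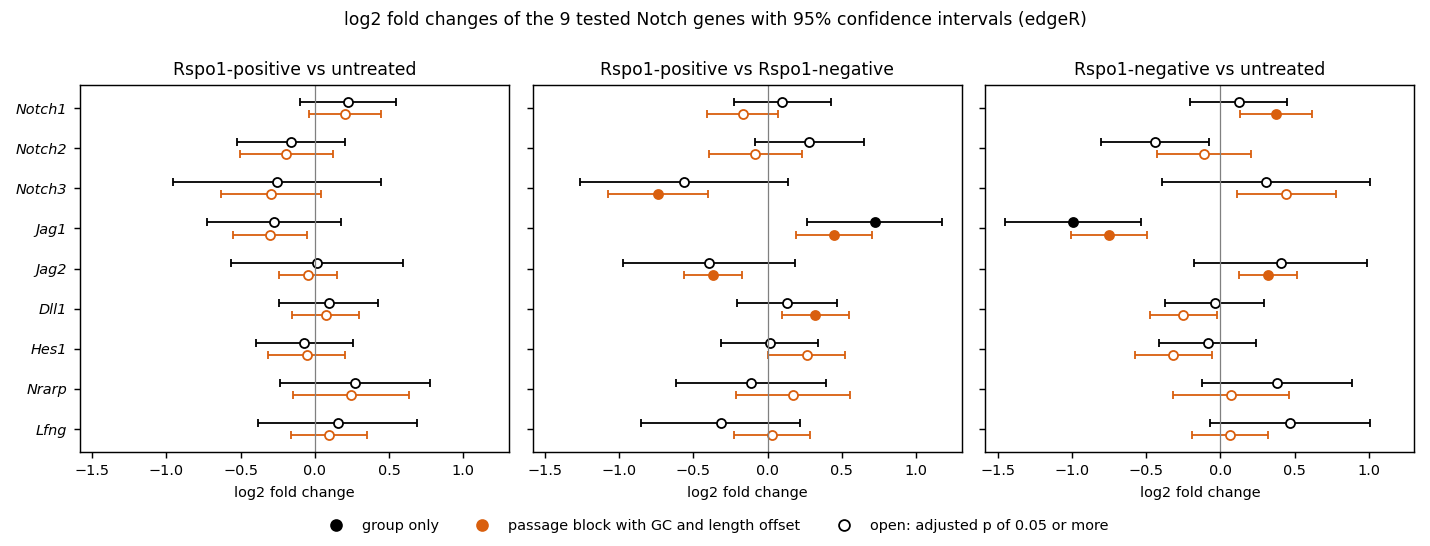
log2 fold changes (x axis) of the 9 tested Notch genes (rows) in the 3 group comparisons, with 95% confidence intervals, from the fit with group alone (black) and the fit with passage as a block and the GC and length correction (orange). Filled points have an adjusted p under 0.05; Jag1 lies at -0.99 in Rspo1-negative against untreated and at 0.72 in Rspo1-positive against Rspo1-negative.

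Jag2 (ENSMUSG00000002799, chr12:112907819-112929776, minus strand), the other Jagged ligand, had 92.3, 46.6 and 82.2 CPM in untreated, 106, 74.8 and 112 CPM in Rspo1-negative and 84.9, 54.8 and 83.1 CPM in Rspo1-positive libraries. The Rspo1-negative library was the highest of its passage at passages 5, 6 and 10, opposite to Jag1, but the passage 6 libraries were low in all groups and the ranges overlapped. With group alone, Jag2 was not called for Rspo1-negative against untreated (0.41, adjusted p = 0.297 by edgeR) or for Rspo1-positive against Rspo1-negative (-0.39, adjusted p = 0.302). With the passage block it was called in both, at 0.44 (adjusted p = 0.0152) and -0.40 (adjusted p = 0.0210), and with block and GC and length correction at 0.32 (0.0264) and -0.37 (0.0152).

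Dll1 (ENSMUSG00000014773, chr17:15367354-15376872, minus strand), a Delta ligand, had 28.1, 38.2 and 34.4 CPM in untreated, 28.0, 33.9 and 36.2 CPM in Rspo1-negative and 33.6, 37.0 and 36.7 CPM in Rspo1-positive libraries. These ranges overlapped. The 95% interval of the log2 difference between Rspo1-negative and untreated was -0.37 to 0.30, around -0.04 (adjusted p = 0.885 by edgeR). Only the fit with the passage block and the GC and length correction called Dll1, for Rspo1-positive against Rspo1-negative (0.32, adjusted p = 0.0446, against 0.13 and 0.564 with group alone).

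As shares of the summed FPKM of these 3 ligands, Jag1 held 27.7, 45.5 and 31.7% in the untreated libraries of passages 5, 6 and 10. It held 15.1, 25.0 and 16.1% in the Rspo1-negative and 28.0, 34.2 and 28.7% in the Rspo1-positive libraries. Jag2 held 39.4 ± 13.0% (SD, n = 3), 54.9 ± 8.36% and 41.1 ± 6.66% in these groups, and Dll1 25.6 ± 3.74%, 26.4 ± 3.11% and 28.6 ± 3.27%. The Jag1 share was 16.2 percentage points lower in Rspo1-negative than in untreated libraries and 11.5 points higher in Rspo1-positive libraries than there, without overlap in either case. Of 18 comparisons of receptor and ligand shares, 7 had an exact two-sided permutation p of 0.1, the smallest that 3 libraries against 3 can give, and an adjusted p of 0.257 over the 18. The permutation did not pair the libraries by passage. At passages 5, 6 and 10 the Jag2 share was 61.7, 45.6 and 57.4% in the Rspo1-negative libraries, the highest of each passage. It was 50.4, 25.1 and 42.8% in untreated and 46.0, 33.5 and 43.7% in Rspo1-positive libraries.

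**Figure D3:**
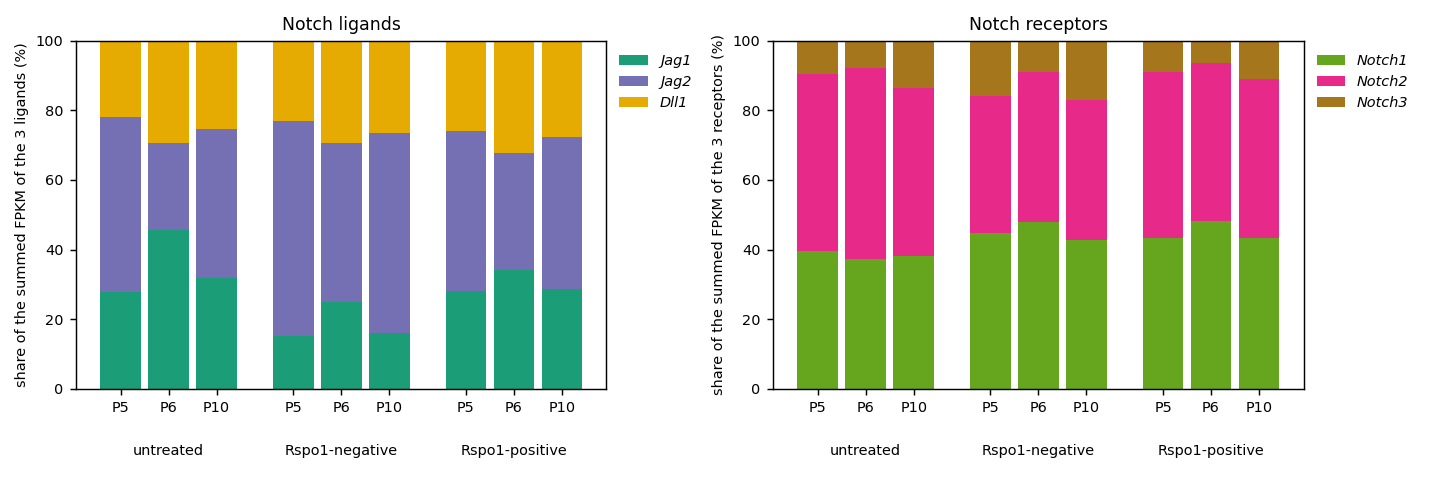
Share of the summed FPKM of the 3 ligands (left) and of the 3 receptors (right) held by each gene, in percent (y axis), in each of the 9 libraries (x axis, by group and passage P5, P6 and P10). The Jag1 share is 15.1 to 25.0% in the Rspo1-negative libraries and 27.7 to 45.5% in the untreated ones; the Notch2 share is 39.4 to 43.1% and 48.2 to 55.1%.

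Lfng (ENSMUSG00000029570, chr5:140607320-140615545, plus strand), the Fringe enzyme, had 30.5, 36.4 and 38.6 CPM in untreated, 35.8, 45.4 and 65.0 CPM in Rspo1-negative and 29.4, 36.9 and 51.1 CPM in Rspo1-positive libraries. The passage 10 library was the highest of each group, and the Rspo1-negative library the highest of each passage. Rspo1-negative against untreated gave a log2 difference of 0.47 ± 0.24 (SE) with an adjusted p of 0.192 by edgeR. With the passage block it was 0.43 with an adjusted p of 0.0224, and with block and GC and length correction 0.06 and not called.

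Hes1 and Nrarp, the targets of this set that were tested, did not pass the test between any pair of groups. Hey1 did not pass the filter on low counts, and no test of it is reported. Sox9, a target among the other pathway genes, was called against untreated and is described below. Hes1 (ENSMUSG00000022528, chr16:30064384-30067796, plus strand), a repressor and direct Notch target, had 43.0, 55.2 and 42.7 CPM in untreated, 39.8, 44.4 and 48.6 CPM in Rspo1-negative and 43.3, 40.7 and 50.2 CPM in Rspo1-positive libraries. The ranges overlapped in all 3 comparisons. Its log2 difference was -0.09 (95% interval -0.41 to 0.24) for Rspo1-negative against untreated, 0.01 (-0.31 to 0.34) for Rspo1-positive against Rspo1-negative and -0.07 (-0.40 to 0.26) for Rspo1-positive against untreated, with adjusted p of 0.720, 0.956 and 0.886 by edgeR. With the passage block and the GC and length correction the differences were -0.32 (adjusted p = 0.0770), 0.26 (0.125) and -0.05 (0.816), and none was called.

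The SD of log2 CPM over the 9 libraries was 0.15 for Hes1, at the 4.29th percentile of all tested genes, 0.17 for Dll1 (5.78th) and 0.18 for Notch1 (8.84th). At the other end stood Jag1, with an SD of 0.51 (66.9th percentile), Notch3 with 0.47 (62.2nd) and Jag2 with 0.41 (54.1st). Between these lay Nrarp (27.0th), Notch2 (28.2nd) and Lfng (46.1st). These percentiles are not adjusted for expression level.

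Nrarp (ENSMUSG00000078202, chr2:25180758-25183339, plus strand), a target that limits Notch signalling, had 5.88, 4.31 and 4.23 CPM in untreated, 6.39, 4.90 and 7.50 CPM in Rspo1-negative and 5.96, 5.16 and 6.24 CPM in Rspo1-positive libraries. The values overlapped, and the log2 difference of Rspo1-negative against untreated was 0.38 (95% interval -0.13 to 0.89, adjusted p = 0.262 by edgeR). Of the exon bases of Nrarp, 79.4% overlap the antisense gene Gm38287, which had 92 to 182 counts. Because the strand setting of the counting was not given, reads of the 2 genes cannot be told apart. The same holds for 20.6% of the exon bases of Dll1 (A930024N18Rik), 7.50% and 2.91% of Notch1 (0610009E02Rik and Gm13568) and 6.03% of Notch3 (Gm17276). Gm42820 overlaps 5.02% of Notch2 on the same strand.

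Hey1 (ENSMUSG00000040289, chr3:8663359-8667256, minus strand), the other repressor, had 11, 3 and 2 counts in untreated, 8, 5 and 6 in Rspo1-negative and 3, 4 and 1 in Rspo1-positive libraries. No test of Hey1 is reported at these low counts. Its Rspo1-negative values lay above its Rspo1-positive ones, at 0.206 to 0.254 against 0.0280 to 0.135 CPM. Of the related targets, Hes5, Hey2 and Heyl had at most 2, 1 and 1 counts in any library. The ligands Dll3 and Dlk1 had 0 to 2 and 1 to 10 counts. Hes1 was therefore the only Hes or Hey gene of the lists with counts above the filter.

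Between Rspo1-positive and untreated cells 0 of the 9 tested Notch genes passed edgeR's test, beside 5.21% of all genes. On counts simulated for this comparison the test recovered 45 of 100 genes changed by 1 on the log2 scale. The changed genes were drawn at random from all tested genes, so this share is not that of the Notch genes. Smaller differences could be missed. The log2 differences ran from -0.27 (Jag1, 95% interval -0.73 to 0.18, adjusted p = 0.572) to 0.27 (Nrarp, adjusted p = 0.640). At an unadjusted p under 0.05 the count was 0 as well, and the share over all genes was not counted. DESeq2 called 0, beside 8.85% of all genes. With the passage block 0 were called, beside 13.2% of all genes, and with block and GC and length correction 0, beside 17.2%. Values did not overlap in Notch1 alone, beside 23.2% of all genes. The median log2 difference over the 9 was 0.01, and -0.01 over all genes. In Rspo1-positive against Rspo1-negative the medians were 0.01 and 0.03, and in Rspo1-negative against untreated 0.12 and -0.02. These 3 comparisons share libraries, so they are not independent of each other.

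The authors' deposited DESeq2 tables list 9 of the 10 Notch genes. For Rspo1-negative against untreated, the authors' deposited table gives Jag1 a log2 fold change of -0.97 with an adjusted p of 2.54e-07, Jag2 0.46 (0.0321) and Notch2 -0.45 (0.0344). For Rspo1-positive against Rspo1-negative, the authors' deposited table gives Jag1 0.72 (4.73e-06), Notch3 -0.56 (0.00158), Jag2 -0.42 (0.00184) and Lfng -0.33 (0.0256). For Rspo1-positive against untreated, no Notch gene has an adjusted p under 0.05 in the authors' deposited table. Over all 15807 genes listed there, 4269 have an adjusted p under 0.05 for Rspo1-negative against untreated. The same count is 6964 for Rspo1-positive against Rspo1-negative and 2190 for Rspo1-positive against untreated.

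Jag2, Notch3 and Lfng differed between passages in the fits of group and passage. There was 1 library of each group at each passage, so passage number and any difference between the 3 culture runs cannot be told apart. Notch3 had 14.7 ± 2.56 CPM (SD, n = 3) at passage 6 and 28.0 ± 7.08 CPM at passage 10, and it rose 1.89-fold. The log2 difference was 0.92 ± 0.13 (SE) with an adjusted p of 0.00257 by edgeR, and 0.85, 1.06 and 0.83 in the untreated, Rspo1-negative and Rspo1-positive groups. It was called in 11 of 11 alternatives. Against passage 5, where it had 18.6 ± 2.71 CPM, Notch3 at passage 10 was higher by 0.56 ± 0.13 (adjusted p = 0.0251). That call was lost without the passage 5 library of the untreated (adjusted p = 0.144) or Rspo1-negative group (0.152), without the passage 10 library of the untreated (0.0958), Rspo1-negative (0.138) or Rspo1-positive group (0.0560), and with the GC and length correction (0.37, adjusted p = 0.132).

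Jag2 had 94.5 ± 10.8 CPM (SD, n = 3) at passage 5, 58.8 ± 14.5 at passage 6 and 92.3 ± 16.8 at passage 10. All 3 passage 6 libraries lay below those of the other passages. From passage 5 to 6 it fell by 0.71 ± 0.12 (SE) on the log2 scale (adjusted p = 0.0123 by edgeR), a call lost without the passage 5 library of the untreated (0.109) or Rspo1-positive group (0.0558) or the passage 6 library of the Rspo1-positive group (0.0512). From passage 6 to 10 it rose by 0.66 ± 0.12 (adjusted p = 0.00770), in 11 of 11 alternatives. Jag1 had 47.0 ± 16.0, 66.5 ± 24.2 and 53.8 ± 17.1 CPM at these passages. Its difference between passages 6 and 5 was 0.51 ± 0.13 (adjusted p = 0.0756), which was called by DESeq2 and without the filter on low counts.

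Lfng had 31.9 ± 3.46 CPM (SD, n = 3) at passage 5, 39.6 ± 5.08 at passage 6 and 51.6 ± 13.2 at passage 10, and passage 10 values lay above all passage 5 values. From passage 5 to 10 it rose by 0.67 ± 0.13 (SE) on the log2 scale (adjusted p = 0.00980 by edgeR), by 0.34, 0.86 and 0.80 in the untreated, Rspo1-negative and Rspo1-positive groups. The call was lost without the passage 5 library of the Rspo1-negative (0.0842) or Rspo1-positive group (0.0629) or the passage 10 library of the Rspo1-negative (0.0663) or Rspo1-positive group (0.0600). Whether the rise differed between groups was not tested. Hes1, Dll1, Notch1, Notch2 and Nrarp were not called between any passages. Of the 9 Notch genes, 2 were called at passage 10 against 5, 1 at passage 6 against 5 and 2 at passage 10 against 6, beside 9.07%, 2.49% and 8.45% of all genes. Values did not overlap between passages in 2 (Lfng and Dll1), 5 (Jag2, Dll1, Lfng, Notch3 and Nrarp) and 2 (Notch3 and Jag2), beside 16.7%, 8.83% and 14.5% of all genes.

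**Figure D4:**
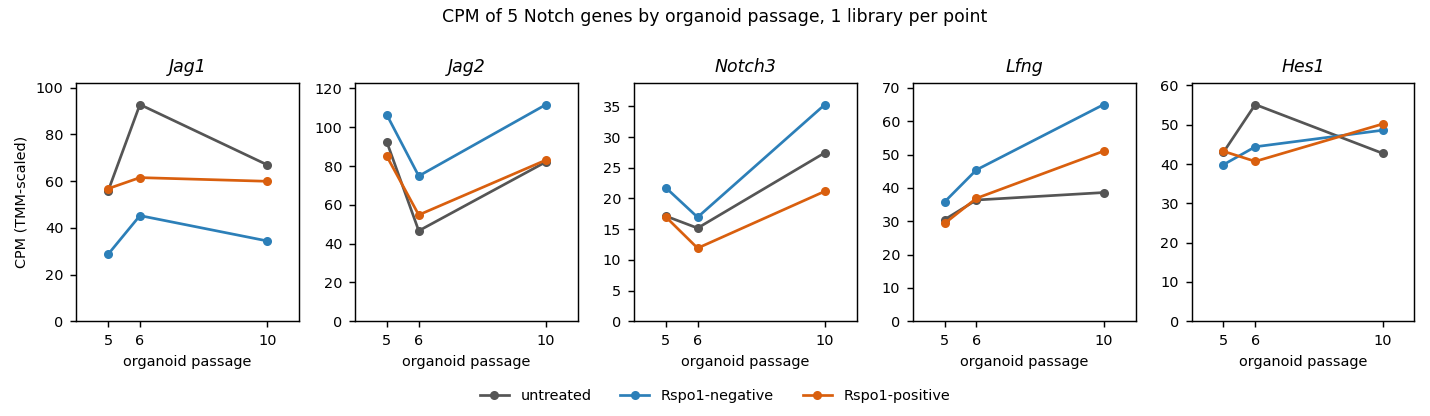
CPM (y axis, from 0) of Jag1, Jag2, Notch3, Lfng and Hes1 at organoid passages 5, 6 and 10 (x axis, to scale), 1 line per group and 1 library per point. Jag2 is lowest at passage 6 in each group, Notch3 and Lfng are highest at passage 10 in each group, and Jag1 is lowest in the Rspo1-negative group at each passage.

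A list of 42 other Notch pathway genes was read in the same fits, and 36 of them were tested. In Rspo1-negative against untreated, 3 were called higher and 7 lower, beside 8.0% and 13.9% of all genes, and the median log2 difference was -0.10, against -0.02 over all genes. Of all genes called here 36.5% were higher, and 49.5% under upper-quartile scaling. Adam10, the protease that makes the extracellular cut in Notch, fell by 1.23 on the log2 scale (adjusted p = 0.00166 by edgeR), from 32.6, 31.5 and 25.5 to 15.3, 14.2 and 9.75 FPKM. Mib1, the ubiquitin ligase that lets ligands be internalised and so become active, fell by 1.39 (adjusted p = 0.00232), from 8.0, 7.43 and 8.54 to 2.68, 4.42 and 2.26 FPKM. The coactivator Maml2 fell by 1.31 (adjusted p = 0.00226). For these 3 genes the groups did not overlap and the call held in 14 of 14 alternatives, with smaller differences of -0.68, -0.55 and -0.90 after the GC and length correction.

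The receptor-degrading ligase Itch fell by 0.60 and Rbpj, the DNA-binding partner of Notch, by 0.62 in the same comparison (adjusted p of 0.00628 and 0.0185 by edgeR). After the GC and length correction these differences were 0.04 and -0.06 and neither was called. The Rbpj call was also lost without the untreated library of passage 5 (0.0685) or the Rspo1-negative library of passage 10 (0.0869). Fbxw7 (-0.65, adjusted p = 0.0301), which marks the intracellular domain for destruction, was lost with the correction (0.166) and without the passage 5 or 10 library of either group (0.0801 to 0.102). Neurl1b (-0.62, adjusted p = 0.0483) was lost on leaving out any of the 6 libraries (0.0514 to 0.140). Dtx4, a ubiquitin ligase, rose by 0.53 (adjusted p = 0.0198), a call lost without the untreated library of passage 5 (0.0687) or 10 (0.0501). Rbpj, Fbxw7, Neurl1b and Dtx4 were also not called in a fit of the 6 compared libraries alone, Rbpj and Fbxw7 without the filter on low counts, and Neurl1b under upper-quartile scaling or with the GC and length correction. In the fit with the passage block 15 of the 36 were called, beside 35.5% of all genes. Among those added, Neurl1a (0.62, adjusted p = 0.0225) and Mib2 (0.31, 0.0472) were higher and Adam17 (-0.62, 0.00356), Numb (-0.34, 0.0350) and Cir1 (-0.57, 0.0381) lower. With the GC and length correction 5 of the 36 were called, beside 8.8% of all genes, and with correction and block 10, beside 22.2%.

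Across all genes, the log2 difference of Rspo1-negative against untreated had a Spearman correlation of 0.50 with GC content and -0.31 with transcript length (17001 genes, which are not independent). For Rspo1-positive against Rspo1-negative these were -0.50 and 0.31, and for Rspo1-positive against untreated -0.01 and 0.01. Jag1 stood at the 43.9th percentile of GC content and the 86.4th of length among tested genes, and Jag2 at the 97.6th and 83.0th. Notch3, Lfng and Notch1 were also rich in GC, at the 94.3rd, 92.5th and 86.8th percentiles. The part of this relation in the calls was not tested beyond the corrected values given beside them.

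In Rspo1-positive against Rspo1-negative, 6 of the 36 were called higher and 2 lower, beside 14.6% and 9.78% of all genes. Mib1 (1.48, adjusted p = 0.00225 by edgeR), Adam10 (0.92, 0.00574), Maml2 (1.05, 0.00618), Fbxw7 (0.80, 0.0122), Itch (0.51, 0.0125) and Rbpj (0.52, 0.0328) were higher, and of these Mib1 alone was called after the GC and length correction (0.57, adjusted p = 0.0263). With that correction and the passage block, Adam10, Maml2 and Fbxw7 were called too. The Rbpj call was lost without the filter on low counts and on leaving out any of the 6 libraries (0.0570 to 0.129), and the Itch call without the Rspo1-positive library of passage 5 (0.0587) or 10 (0.0512). The gamma-secretase subunits Psenen (-0.69, adjusted p = 0.0117) and Aph1a (-0.47, 0.0177) were lower and not called after the correction (adjusted p of 0.167 and 0.204). Psenen had 52.4, 37.4 and 44.2 FPKM in Rspo1-negative and 27.2, 27.4 and 26.6 FPKM in Rspo1-positive libraries. The Aph1a call was lost without any of the 3 Rspo1-positive libraries or the Rspo1-negative library of passage 5 (0.0507 to 0.0607). With the passage block 14 of the 36 were called, beside 38.9% of all genes, with the correction 2, beside 8.49%, and with both 11, beside 24.3%.

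In Rspo1-positive against untreated, 2 of the 36 were called higher and 0 lower, beside 3.07% and 2.13% of all genes. Sox9, a duct transcription factor and Notch target in the liver, had 7.99, 14.7 and 17.6 FPKM in untreated, 21.2, 25.5 and 38.7 FPKM in Rspo1-negative and 26.1, 30.6 and 43.1 FPKM in Rspo1-positive libraries. Every Rspo1-treated library lay above every untreated one. The log2 difference was 1.31 (adjusted p = 0.0412 by edgeR) for Rspo1-positive and 1.05 (0.0381) for Rspo1-negative cells against untreated. The former call was lost without the passage 5 or 6 untreated library (0.107 and 0.0885) or the passage 6 or 10 Rspo1-positive library (0.0966 and 0.140). The latter was lost without the passage 5 or 6 untreated library (0.102 and 0.0595) or the passage 10 Rspo1-negative library (0.115), and with the GC and length correction (1.09, adjusted p = 0.0580). Neither was called in a fit of the 6 compared libraries alone. The proliferation list was also higher in every Rspo1-treated than in every untreated library, and its part in these differences was not tested. Whether Notch or Wnt signalling had a part in them was not tested either. Within passages 5, 6 and 10 the differences were 1.70, 1.04 and 1.31 for Rspo1-positive and 1.34, 0.78 and 1.12 for Rspo1-negative cells.

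Tle1, a Groucho corepressor that binds Hes proteins, had 4.78, 5.84 and 3.93 FPKM in untreated, 7.00, 11.8 and 10.8 FPKM in Rspo1-negative and 7.25, 11.9 and 10.7 FPKM in Rspo1-positive libraries, again without overlap. Against untreated, its log2 difference was 0.99 (adjusted p = 0.0185 by edgeR) in Rspo1-negative and 1.03 (0.0381) in Rspo1-positive cells. The calls were lost without the untreated library of passage 5 (0.0548 and 0.115) or 10 (0.0570 and 0.0889), the Rspo1-negative library of passage 10 (0.0539) or the Rspo1-positive library of passage 6 (0.160) or 10 (0.120). In the fit with the passage block 5 of the 36 were called, beside 13.2% of all genes, and with block and correction 7, beside 17.2%. The 5 were Sox9, Tle1, Dtx4 (0.52, adjusted p = 0.00878), Dlk2 (-1.16, 0.0146) and Numbl (-0.57, 0.0273).

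**Figure D5:**
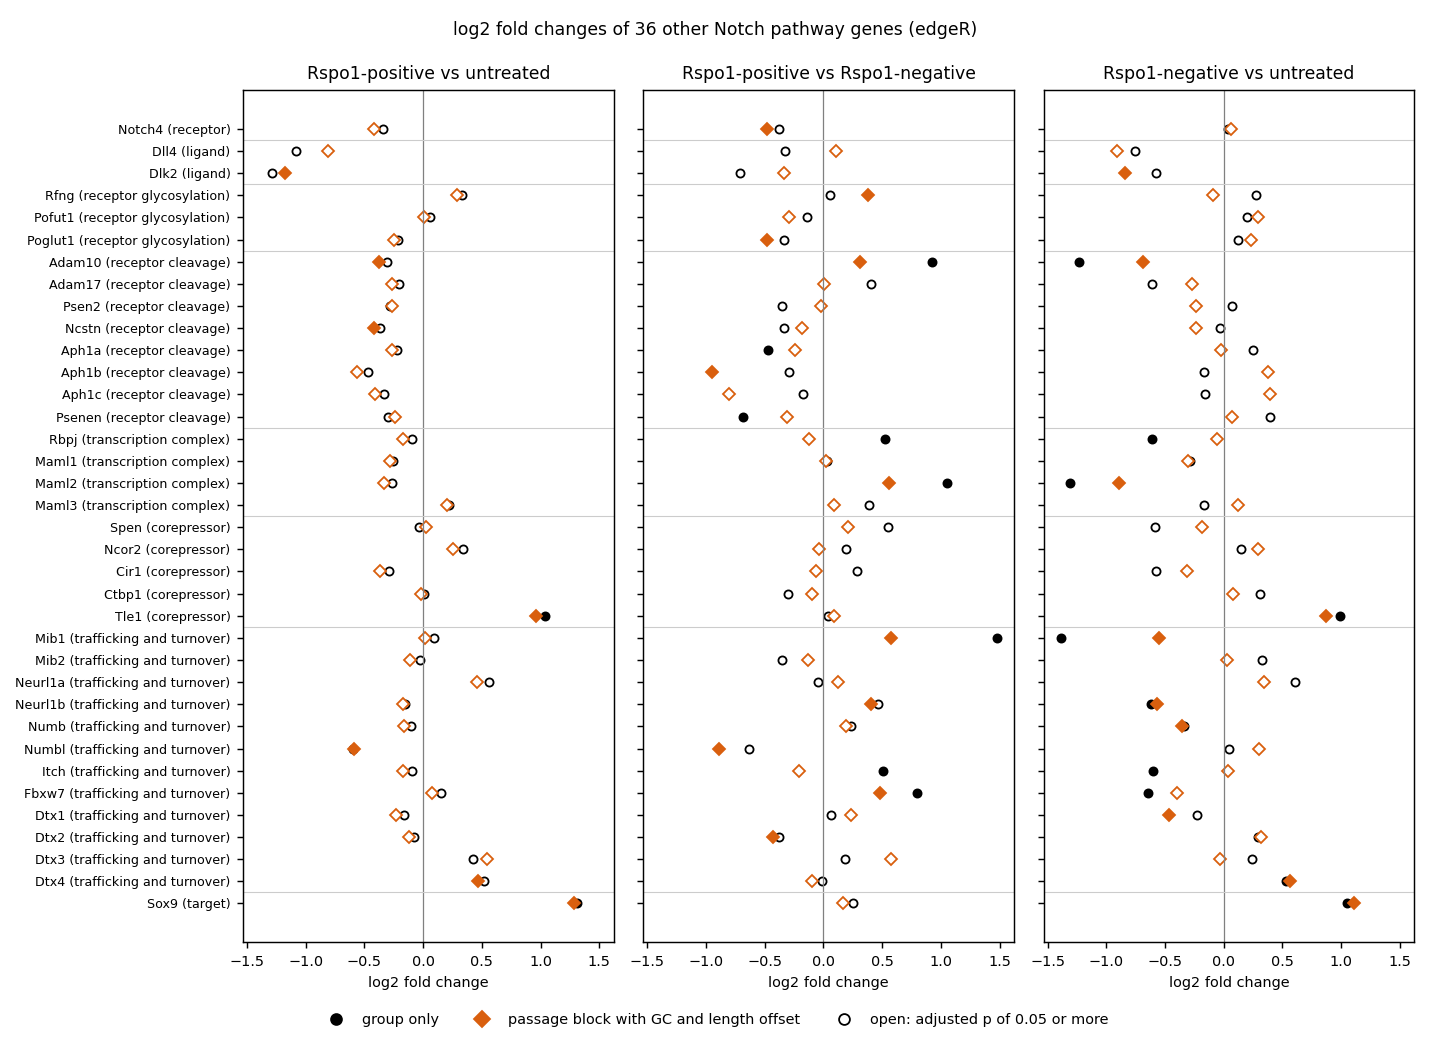
log2 fold changes (x axis) of the 36 other tested Notch pathway genes (rows, with their role) in the 3 group comparisons, from the fit with group alone (black circles) and the fit with passage as a block and the GC and length correction (orange diamonds); filled symbols have an adjusted p under 0.05. Mib1 moves from -1.39 to -0.55 in Rspo1-negative against untreated, while Sox9 lies at 1.31 and 1.28 in Rspo1-positive against untreated.

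With passage, 7 of the 36 were called higher and 3 lower at passage 10 against 5, beside 4.57% and 4.5% of all genes. Sox9 rose by 0.93 (adjusted p = 0.00292 by edgeR) and the ligase Dtx1 by 0.94 (0.00505), and the Delta-like Dlk2 fell by 1.60 (0.00496), each in 11 of 11 alternatives. The other 7 (Maml1, Maml3, Neurl1b, Numbl and Dtx3 higher, Poglut1 and Psen2 lower) each lost their call on leaving out a library, with adjusted p of up to 0.104 to 0.227. At passage 6 against 5 Dlk2 alone was called (-1.47, adjusted p = 0.0173; 0 higher and 1 lower, beside 1.16% and 1.33% of all genes), lost without the passage 5 library of any group (0.0520 to 0.155) or the passage 6 Rspo1-positive library (0.0624). At passage 10 against 6, Numbl (0.91, adjusted p = 0.00476, 11 of 11 alternatives) and Maml3 (0.63, 0.0391) were higher and Adam17 (-0.57, 0.0181) and Psen2 (-0.49, 0.0473) lower, beside 4.4% and 4.05% of all genes. The last 3 lost their calls without single libraries (adjusted p of up to 0.0770 to 0.208).

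The genes most like Jag1 over the 9 libraries, by the root mean square difference of centred log2 CPM, were Efcab2 (0.08), Adgrg6 (0.09) and Ids (0.11), against 0.48 for the spread of Jag1 itself. Adgrg6 is an adhesion receptor and Ids a lysosomal sulfatase. Mean log2 CPM of Adgrg6 was 6.44 in untreated, 5.61 in Rspo1-negative and 6.35 in Rspo1-positive libraries, and that of Ids 5.25, 4.24 and 4.97. They were picked for this likeness among 17011 genes, so it is a description and carries no test.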

How the data were processed

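RNA was measured in 9 libraries of sorted organoid cells (3 groups at passages 5, 6 and 10), sequenced from 100 ng of RNA with single-end reads of 75 bp (labels' protocols). The deposited files hold raw counts per gene and FPKM per gene, per the file headers. The submitters' processing notes name Trimmomatic 0.35, FastQC 0.11.2, STAR 2.5.1b, featureCounts, DESeq2 and GRCm38, and the annotation and strand setting are not given in the sources used here. Dividing count by FPKM showed that FPKM had been scaled with a size factor of the median-of-ratios kind instead of library totals, so FPKM entered no gene test. The authors' deposited tables of the 3 group comparisons hold log2 fold changes and p-values for 15807 genes, with a test score that was not used.

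Counts were tested in R 4.3.3 with edgeR 4.0.16 (filterByExpr with minimum count 10 and minimum total 15, TMM scaling, quasi-likelihood F-test on group over all 9 libraries, Benjamini-Hochberg over 17011 genes, threshold 0.05), and passages in a fit of group and passage. CPM use TMM-scaled library sizes. The SE is the log2 fold change divided by the square root of F, and intervals are at 95%. Alternatives were DESeq2 1.42.0, DESeq2 size factors and upper-quartile scaling in edgeR, no filter, the 6 compared libraries alone, leaving out each library, passage as a block, and a GC and length offset (splines with 5 degrees of freedom per library on the longest GENCODE vM21 transcript, matched for 99.9% of tested genes), alone and with the block. On simulated counts for Rspo1-positive against untreated (17011 genes), the test recovered 45 of 100 genes changed by 1 on the log2 scale and 78 of 100 changed by 2.

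Same-numbered libraries share a passage, per the labels. After removal of group means, log2 CPM correlated at 0.123 to 0.573 for the 9 pairs of different groups and the same passage and at -0.476 to 0.0826 for the 18 pairs that differ in both, so passage pairs the libraries. No replicates were near-identical (chi-square per gene of 54.4 to 518). Gene positions are from GENCODE vM21 (GRCm38), and promoters from RefSeq. The Notch genes, the other lists and the tests were chosen with earlier results of these data known. The rule names all 10 Notch genes, of the other pathway genes those with an adjusted p under 0.05 with or without the block (at most 12 per comparison), untested ligands and targets, and the 3 genes most like a called Notch gene. Some listed genes are not reported here. Figures used matplotlib 3.10.9.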

Additional observations from a re-analysis of the deposited data

How the results depend on the processing

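Called Notch genes kept direction in every fit: of 83 alternative fits of called values, 64 kept the call and 19 lost it. With the passage as a replicate block, 3 Notch genes were called for Rspo1-positive against Rspo1-negative and 4 for Rspo1-negative against untreated (1 each without it). It changed no other Notch gene's call. With the GC and length correction 0 were called for Rspo1-positive against Rspo1-negative, beside 8.49% of all genes. At passage 10 against 5 this correction called 1, beside 12.5%. With correction and block 4 were called for Rspo1-positive against Rspo1-negative, beside 24.3%, and 3 for Rspo1-negative against untreated, beside 22.2%. At passage 6 against 5, DESeq2 and the fit without a filter called 2 each, beside 5% and 3.83%. Leaving out single libraries gave 0 to 1 called for Rspo1-positive against Rspo1-negative, beside 12.4 to 24.2% of all genes. For passages 10 and 6 against 5 the counts were also 0 to 1, beside 2.25 to 3.87% and 0.541 to 4.86%. Over all genes, the block took the calls from 886 to 2247 (Rspo1-positive against untreated), 4141 to 6624 (against Rspo1-negative) and 3724 to 6039 (Rspo1-negative against untreated). The correction took the last 2 to 1444 and 1497. The causes were not tested.

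Directions reversed in 48 of 592 fits of values not called. With the correction, and with correction and block, these were Jag2 (-0.050 and -0.046) in Rspo1-positive against untreated, and Notch1 (-0.17 and -0.17), Notch2 (-0.088 and -0.083), Nrarp (0.16 and 0.17) and Lfng (0.031 and 0.031) in Rspo1-positive against Rspo1-negative. Hes1 in the latter gave -0.016 with DESeq2 size factors, -0.034 with upper-quartile scaling, -0.016 with DESeq2 and -0.022 without a filter. Dll1 gave 0.037 with upper-quartile scaling and 0.022 without a filter in Rspo1-negative against untreated. At passage 10 against 6, Notch2 gave 0.011 with the correction and Hes1 -0.0011 with upper-quartile scaling. On leaving out libraries, Rspo1-positive against untreated ran from -0.46 to 0.048 (Notch3), -0.23 to 0.21 (Jag2), -0.021 to 0.19 (Dll1), -0.16 to 0.061 (Hes1) and -0.087 to 0.32 (Lfng). Rspo1-positive against Rspo1-negative ran from -0.056 to 0.17 (Notch1) and -0.077 to 0.053 (Hes1), and Rspo1-negative against untreated from -0.15 to 0.063 (Dll1) and -0.15 to 0.046 (Hes1). Between passages, 10 against 5 ran from -0.12 to 0.058 (Jag2) and -0.24 to 0.12 (Nrarp), 6 against 5 from -0.0095 to 0.25 (Hes1), and 10 against 6 from -0.11 to 0.059 (Notch1), -0.15 to 0.056 (Notch2), -0.098 to 0.051 (Dll1) and -0.13 to 0.17 (Hes1). Depth limits Hey1, and 3 libraries per group from 1 animal limit all results.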
